A study of Homo sapiens with 32 samples.

Results

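A set of 9 genes of the osteoblast lineage was followed in U2OS cells, a human osteosarcoma line. The genes were RUNX2, DLX5, MSX2, BMP2, ALPL, SPP1, SPARC, BGLAP and IBSP, taken by symbol from the deposited expression matrix, where all 9 had a row among 35587 genes. Poly-A RNA was sequenced from cells with wild-type p53 (p53 WT/WT, here WT), without p53 (p53 KO, here KO), with 1 mutant allele (p53 WT/A347D, here HET) or with 2 (p53 A347D/A347D, here HOM). The changed residue lies in the domain through which p53 forms tetramers. The altered lines were made in U2OS by CRISPR-Cas9. Each genotype received DMSO, the solvent, or 20 µM etoposide, a topoisomerase II poison that leaves DNA breaks, for 24 h. Every one of the 8 groups had 4 libraries, each from a separate plate. The labels do not say how many clones stood behind a genotype, so genotype and line cannot be told apart. The p-values measure the spread between plates, which was pooled over the 8 groups except for IBSP.

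Osteoblasts arise from mesenchymal progenitors under the transcription factor RUNX2, with homeobox factors of the DLX and MSX families acting in the same tissue. Bone morphogenetic proteins such as BMP2 signal through receptor kinases and SMAD proteins and induce several of these factors. Maturing osteoblasts then make alkaline phosphatase, which supplies phosphate for mineral, and a matrix that holds osteopontin, osteonectin, osteocalcin and bone sialoprotein.

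Library totals were 18.25 to 24.19 M counts, except HET etoposide library 2 with 8.05 M. Mean normalized counts of CDKN1A, the p53 target that encodes p21, went with etoposide from 4651 to 34111 in WT, 3064 to 8875 in KO, 1551 to 17880 in HET and 3077 to 7526 in HOM. These are counts divided by the size factor of the library. HOM DMSO libraries 2, 3 and 4 stood apart. Their normalized counts summed to 32.02 to 47.28 M against 16.17 to 24.68 M in the other libraries, and mitochondrial genes held 20.68 to 21.92% of their counts against 7.87 to 15.15% in the other 13 DMSO libraries. Tests of the members against HOM DMSO are therefore given also with library 1 as the only HOM DMSO library, whose spread is then assumed to be that of the other groups.

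The upstream sequences of 4 members, RUNX2, SPP1, MSX2 and IBSP, show the start regions of genes whose values follow. For RUNX2 and SPP1 a difference of the etoposide response from WT was called, which did not hold under every setting given below. MSX2 rose in every genotype, and IBSP had counts only with etoposide. A RefSeq table of promoters (build GRCh38.p14) held 10 start sites for 7 of the 9 members, all but BMP2 and DLX5. Each line below gives the 250 bases before a start site, plus strand, 5′ to 3′. Capitals mark matches to a RUNX core (TGTGGT, read ACCACA on the other strand), an AP-1 site (TGANTCA), a homeobox core (TAATTA) or a TATA box (TATAAA, read TTTATA on the other strand). Both strands were searched.
RUNX2, distal start, chr6:45328080-45328329: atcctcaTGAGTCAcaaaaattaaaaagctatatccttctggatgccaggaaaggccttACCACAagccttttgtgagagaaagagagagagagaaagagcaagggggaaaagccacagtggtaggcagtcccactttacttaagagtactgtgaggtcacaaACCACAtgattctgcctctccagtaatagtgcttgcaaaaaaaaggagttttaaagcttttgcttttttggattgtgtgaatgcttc
SPP1, chr4:87975464-87975713: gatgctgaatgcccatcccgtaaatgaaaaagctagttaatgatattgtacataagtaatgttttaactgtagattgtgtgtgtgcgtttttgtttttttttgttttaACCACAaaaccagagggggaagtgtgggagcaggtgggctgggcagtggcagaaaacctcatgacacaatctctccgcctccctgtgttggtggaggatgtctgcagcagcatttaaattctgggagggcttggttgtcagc
MSX2, chr5:174724332-174724581: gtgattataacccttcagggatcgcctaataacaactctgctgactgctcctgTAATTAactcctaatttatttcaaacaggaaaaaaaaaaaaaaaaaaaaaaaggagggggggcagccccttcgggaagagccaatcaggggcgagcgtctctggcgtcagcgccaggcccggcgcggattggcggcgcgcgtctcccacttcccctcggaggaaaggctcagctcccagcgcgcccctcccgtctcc
IBSP, chr4:87799304-87799553: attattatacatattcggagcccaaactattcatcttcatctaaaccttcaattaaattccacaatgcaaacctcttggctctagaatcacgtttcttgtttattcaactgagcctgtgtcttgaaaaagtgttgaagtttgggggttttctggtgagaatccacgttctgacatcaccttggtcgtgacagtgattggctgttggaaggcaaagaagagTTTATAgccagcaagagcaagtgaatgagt
The RUNX2 stretch held 2 RUNX cores, the nearer one 87 bases before the start, and an AP-1 match at its far end. The other RUNX2 start site held no match to any of these motifs in its 300 bases (250 before to 50 after). SPP1 held 1 RUNX core 142 bases before the start. MSX2 held 1 homeobox core, and IBSP a TATA box 30 bases before the start. Over windows of 300 bases (250 before to 50 after the start), a RUNX core was found in 13.1% of the 35116 promoters of the table, an AP-1 site in 7.7%, a homeobox core in 4.8% and a TATA box in 11.5%. These matches describe the letters and no binding was measured.

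Per length of transcript, the members spanned 4 orders of size. SPARC (osteonectin, a collagen-binding matrix protein) averaged 7968 normalized counts per kb over the 32 libraries and held 0.1463% of all counts. SPP1 (osteopontin) averaged 211 per kb, RUNX2 164.5, MSX2 140.4, BMP2 75.03 and ALPL 52.59. BGLAP (osteocalcin) averaged 11.88 per kb, DLX5 4.541 and IBSP (bone sialoprotein) 0.7677. Of the osteoblast markers, 9 of 10 were analysed (SP7 was not analysed here) and 6 of them averaged at least 10 normalized counts. SPARC and COL1A1 were abundant, the latter at 19520 to 83290 normalized counts, whereas COL1A2, the partner chain of collagen I, averaged 17.97. Markers of other cell types were also read, as sums of normalized counts over each list. The 5 chondrocyte markers had group means from 1562 in HOM etoposide (libraries 1361 to 1860) to 3573 in WT DMSO (3085 to 4053). SOX9, a factor of chondrocytes, made up most of this sum with an average of 2344, beside 304.1 for ACAN, 20.93 for COL2A1, 10.24 for COL10A1 and 1.899 for COMP. The 5 adipocyte markers had group means of 298.2 and 318.9 in WT, 255.6 and 734.8 in KO, 705.4 and 770 in HET and 261.5 and 1128 in HOM cells, in DMSO and etoposide. LPL (319.1) and PPARG (229.5) carried this sum, while PLIN1, ADIPOQ and FABP4 averaged 5.611, 4.044 and 0.8318. Group means of the other lists were 9.208 to 44.31 for 4 muscle markers, 47.29 to 217 for 4 epithelial, 3.4 to 34.27 for 5 blood, 104.3 to 276.8 for 3 endothelial and 32.77 to 105.9 for 4 osteoclast markers. The part of these marker levels in the results below was not tested.

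**Figure D1:**
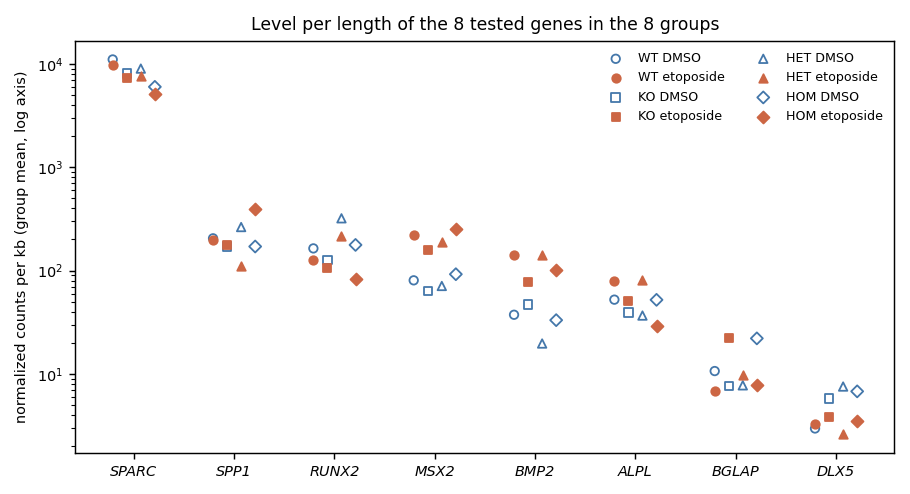
Mean normalized counts per kb of transcript (vertical axis, log scale) in each of the 8 groups for the 8 members that passed the filter on low values, with open symbols for DMSO and filled symbols for etoposide. SPARC lies far above the rest in all 8 groups, and BGLAP and DLX5 lie lowest.

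A gene was tested where at least 4 libraries reached 10 normalized counts, which kept 16824 genes and 8 of the 9 members. IBSP reached 10 in no library. A change was called where limma's adjusted p was under 0.05 and the fold at least 1.5. In WT cells, 3 of the 8 tested members rose with etoposide (ALPL, MSX2 and BMP2) and 0 fell, while 20.1% of all tested genes rose and 14.9% fell. In KO cells 2 rose (MSX2 and BMP2) and 0 fell, beside 18.1% and 14.5% of all genes. In HET cells 3 rose (ALPL, MSX2 and BMP2) and 2 fell (SPP1 and DLX5), beside 17.5% and 12.7%. DLX5 passed the filter only through HET and HOM DMSO libraries, where it was high, so its call in HET is a description. In HOM cells 3 rose (SPP1, MSX2 and BMP2) and 2 fell (RUNX2 and ALPL), beside 37.2% and 28.5%. With library 1 as the only HOM DMSO library the members called were 3, namely MSX2 and BMP2 higher and RUNX2 lower, and the shares of all genes were 20.9% and 17.3%. The median log2 change of the tested members was 0.15 in WT, 0.21 in KO, -0.01 in HET and -0.46 in HOM, against 0.05, 0.05, 0.01 and 0.16 over all tested genes. With HOM DMSO library 1 alone the HOM median was -0.23 against 0.06. Scaling by total counts, in place of the authors' size factors, moved the median of all genes up by 0.22 in WT, 0.30 in KO, 0.19 in HET and 0.97 in HOM. Members called higher and lower were then 3 and 0 in WT, 4 and 0 in KO, 3 and 2 in HET and 4 and 0 in HOM, beside 26.1% and 8.83%, 28.6% and 7.07%, 22.3% and 7.52%, and 63% and 6% of all genes. In bulk RNA, fewer cells expressing a gene and less RNA per cell cannot be told apart.

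**Figure D2:**
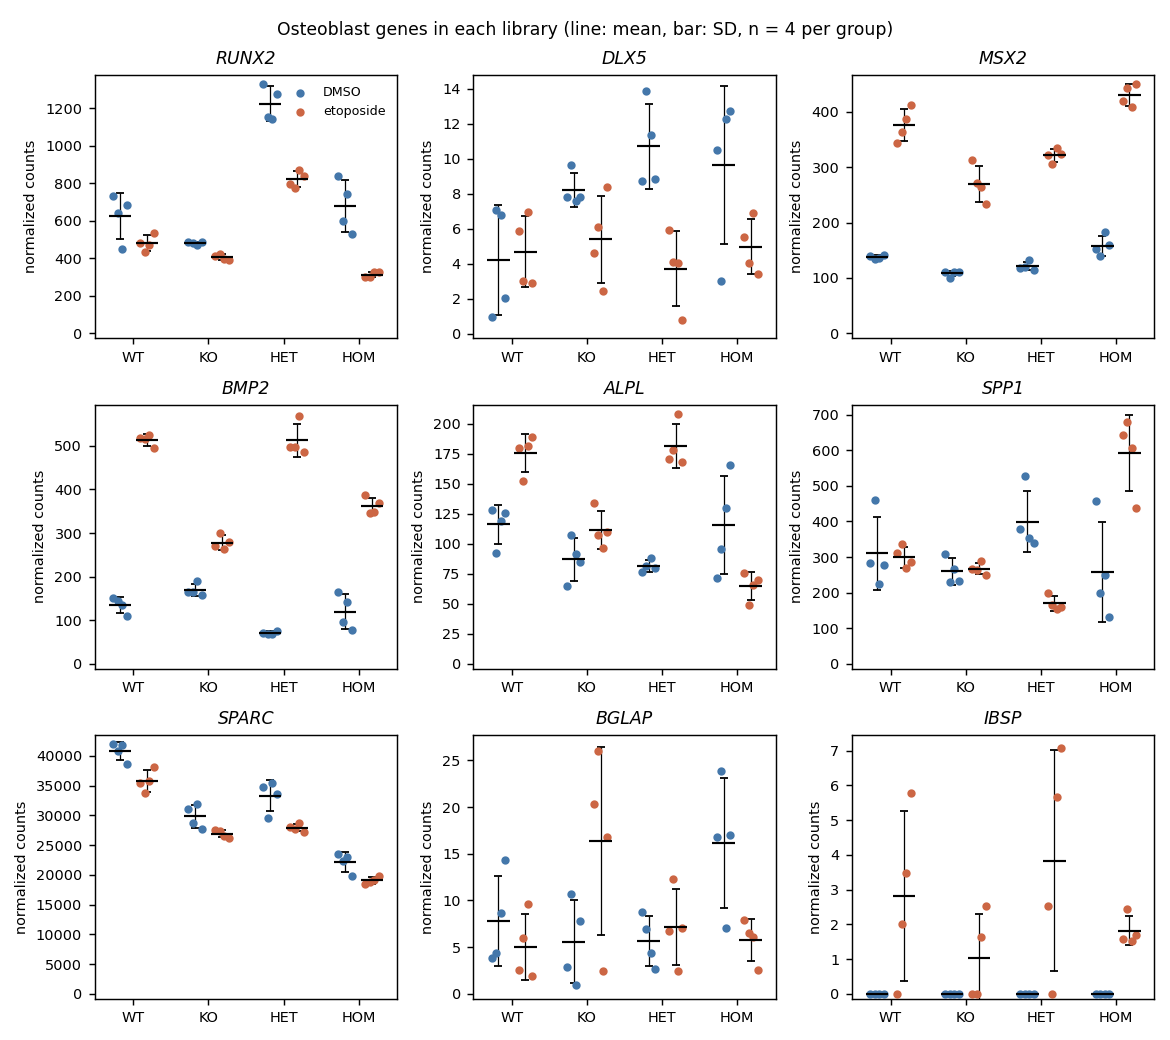
Normalized counts (vertical axes, linear) of each of the 9 members in each of the 32 libraries, with a line at the group mean and a bar of 1 SD, in blue for DMSO and in orange for etoposide. MSX2 and BMP2 are higher with etoposide in every genotype without overlap, RUNX2 is highest in HET cells, and IBSP is at 0 in all 16 DMSO libraries.

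RUNX2, the transcription factor on which osteoblast formation depends (GENCODE 29, GRCh38, chr6:45328157-45664349, plus strand), was highest in HET cells and fell with etoposide in HOM cells. In WT cells it stood at 732, 641, 451 and 682 normalized counts in DMSO and at 480.4, 436, 473 and 537 in etoposide. KO libraries held 486, 482, 471 and 488 in DMSO and 415, 422, 395 and 390.1 in etoposide. HET libraries held 1328, 1154, 1142 and 1277 in DMSO and 798, 775, 869.9 and 841 in etoposide. All 8 HET libraries were thus above every library of the other genotypes except HOM DMSO library 1. In HOM cells the 4 DMSO libraries held 838, 599, 743 and 529 and the 4 etoposide libraries 302, 300.3, 326 and 327. The 2 HOM groups did not overlap, and the etoposide libraries were the lowest of all 32.

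The RUNX2 response in HOM cells was a log2 change of -1.09 ± 0.12 (SE, n = 4 and 4, limma adjusted p = 8.79e-09), and -1.41 ± 0.16 against DMSO library 1 alone (adjusted p = 4.14e-08). Scaled by total counts, where the median of all genes in this contrast moved up by 0.97, it was -0.08 with an adjusted p of 0.7263. In HET cells the change was -0.58 ± 0.12 (adjusted p = 3.00e-04), just under the 1.5-fold limit, and it passed the limit when any 1 of HET DMSO library 2 or 3 or HET etoposide library 3 or 4 was left out. WT gave -0.36 ± 0.12 (adjusted p = 0.0159), also under the limit. The KO change was not called either, with group means of 481.7 and 405.4. The HOM response differed from the WT response by -0.72 ± 0.17 (adjusted p = 0.0010), and by -1.05 against HOM DMSO library 1 alone (adjusted p = 1.09e-04). It was under the fold limit at -0.57 without WT DMSO library 3 and stood at 0.06 under total-count scaling. An antisense gene, RUNX2-AS1, lies inside RUNX2, and the sources used here do not say whether counting used strand.

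DLX5, a homeobox factor of early osteoblasts (chr7:97020392-97024950, minus strand), was close to the limit of detection, with 210 counts in all 32 libraries together. For scale, 3 counts correspond to 2.3 to 6.37 normalized counts, depending on the library. DLX5 reached 10 normalized counts in 5 libraries, all of them of HET or HOM DMSO, the groups where its mean was highest. In HOM DMSO libraries 3 and 4, which stood apart, its values of 12.3 and 12.7 were 7 and 6 counts. DLX5 was thus tested only through these groups, and its calls that involve them are a description. HET DMSO libraries held 8.75, 13.9, 11.4 and 8.85 normalized counts and HET etoposide libraries 5.93, 4.10, 4.06 and 0.788. These ranges did not overlap, and the fall was -1.45 ± 0.46 on the log2 scale (adjusted p = 0.0109). Without HET etoposide library 4 it was -1.03 with an adjusted p of 0.0738. WT libraries held 0.953, 7.08, 6.76 and 2.04 in DMSO and 5.88, 3.01, 6.97 and 2.89 in etoposide, fully overlapping. KO means were 8.21 ± 0.959 (SD, n = 4) in DMSO and 5.38 ± 2.51 in etoposide, HOM means 9.62 ± 4.53 and 4.98 ± 1.57, and neither change was called. Against HOM DMSO library 1 alone the HOM change was -0.98 ± 0.69 (adjusted p = 0.2457), also not called.

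MSX2, a homeobox factor of bone and tooth that responds to BMP signals (chr5:174724533-174730893, plus strand), rose 2.47- to 2.72-fold in the 4 genotypes. WT libraries held 139, 134, 136 and 142 normalized counts in DMSO and 343, 364, 387 and 412 in etoposide. KO libraries went from 110.0, 101, 111 and 111 to 313, 271, 265 and 233. In both genotypes the lowest etoposide library was above the highest DMSO library. HET libraries went from 118, 121, 133 and 115 to 322, 306, 334 and 324. HOM libraries went from 152, 139, 182 and 159 to 420.25, 443, 409 and 449.8. No DMSO library of any genotype reached the lowest etoposide library. The folds were 2.71 in WT (log2 1.44 ± 0.09, adjusted p = 2.84e-13), 2.47 in KO (adjusted p = 3.70e-12), 2.63 in HET (adjusted p = 5.78e-13) and 2.72 in HOM (adjusted p = 1.94e-13). Against HOM DMSO library 1 alone the HOM change was 1.49 (adjusted p = 5.53e-10). No difference of response from WT was called, and the 95% intervals of those differences ran from -0.39 to 0.13 in KO, -0.30 to 0.22 in HET and -0.25 to 0.27 in HOM. With HOM DMSO library 1 alone the HOM difference was 0.06 ± 0.15 (adjusted p = 0.8413). Under total-count scaling the HOM difference was 0.79 and passed (adjusted p = 6.22e-04), where the median of all genes moved up by 0.74.

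BMP2, the secreted ligand of the group (chr20:6767664-6780280, plus strand), rose in all 4 genotypes, most in HET cells and least in KO cells. WT libraries held 149.6, 144, 134 and 110.3 normalized counts in DMSO and 519, 516, 526 and 494 in etoposide. KO libraries started higher, at 164, 165, 190.1 and 157, and reached 270.1, 300.4, 263 and 279. HET libraries started lowest, at 70.8, 68.5, 69.1 and 75.2, and reached 499, 498, 569.7 and 486. The WT and HET etoposide groups thus overlapped, with means of 513.8 ± 13.6 and 513.2 ± 38.1 (SD, n = 4). HOM libraries went from 164, 95.6, 142 and 76.5 to 386, 346, 349 and 369, with library 1 the highest of the DMSO group.

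The BMP2 responses were 3.82-fold in WT (log2 1.93 ± 0.15, adjusted p = 7.50e-12), 1.65-fold in KO (0.72 ± 0.15, adjusted p = 2.20e-04), 7.14-fold in HET (2.84 ± 0.15, adjusted p = 1.80e-15) and 3.15-fold in HOM (1.66 ± 0.15, adjusted p = 1.16e-10). Against HOM DMSO library 1 alone the HOM change was 1.14 ± 0.14 (adjusted p = 1.68e-07). The test of the difference from WT gave -1.22 ± 0.21 for KO (adjusted p = 7.27e-05), the 1 member called among the 8 tested, beside 7.11% of all genes with a higher and 8.13% with a lower response. For HET it gave 0.90 ± 0.21 (adjusted p = 0.0063), and 0.87 with an adjusted p of 0.1426 under total-count scaling. For HOM it was -0.28 ± 0.21 (adjusted p = 0.2582), but -0.79 (adjusted p = 6.32e-04) against HOM DMSO library 1 alone, and 0.50 under total-count scaling.

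**Figure D3:**
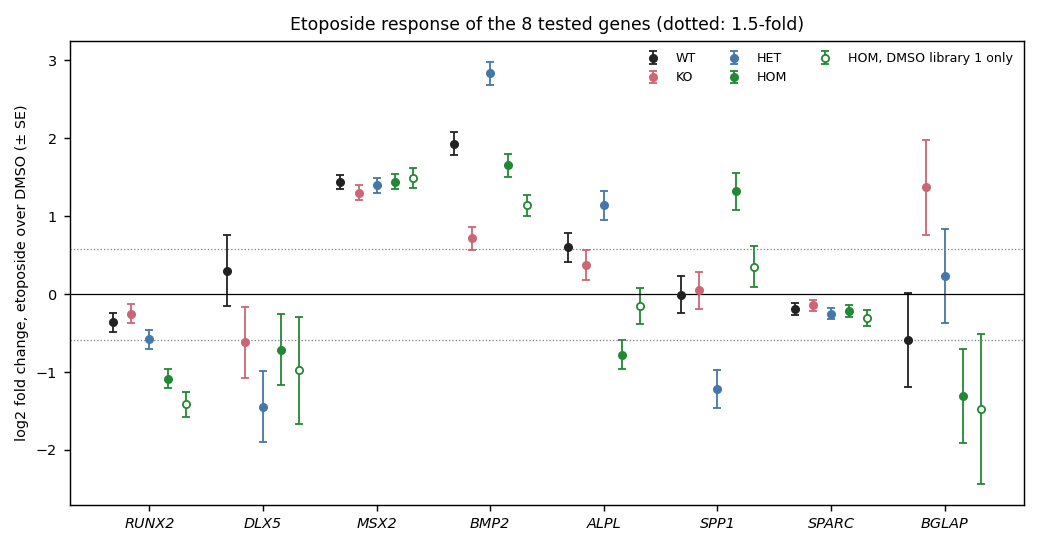
Log2 fold change of etoposide over DMSO with its standard error (vertical axis) for the 8 tested members in the 4 genotypes, with open green circles for HOM cells against DMSO library 1 alone and dotted lines at 1.5-fold. MSX2 lies between 1.30 and 1.49 throughout, BMP2 runs from 0.72 in KO to 2.84 in HET, and SPP1 lies on opposite sides of 0 in HET and HOM.

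ALPL, the tissue-nonspecific alkaline phosphatase of osteoblasts (chr1:21509372-21578412, plus strand), rose in WT and HET cells and was lowest in HOM cells with etoposide. WT libraries held 128, 92.0, 119 and 126 normalized counts in DMSO and 179.7, 153, 181 and 189 in etoposide, without overlap. KO libraries held 64.2, 107, 91.2 and 84.6 in DMSO and 134, 107, 96.6 and 109 in etoposide, which overlap. HET libraries went from 76.1, 81.5, 88.4 and 79.6 to 170.2, 178, 208 and 168, without overlap. HOM libraries held 71.3, 95.6, 129.7 and 166 in DMSO and 75.2, 48.7, 65.2 and 69.7 in etoposide, where DMSO library 1 lay within the etoposide range.

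The ALPL change was 1.14 ± 0.19 in HET (log2, adjusted p = 1.28e-05) and 0.60 ± 0.19 in WT (adjusted p = 0.010), the latter close to the fold limit and under it at 0.49 without WT DMSO library 2, at 0.58 without WT etoposide library 3 and at 0.56 without WT etoposide library 4. In KO cells the group means were 86.8 ± 17.7 and 111.6 ± 15.7 (SD, n = 4) and no change was called. In HOM cells the change was -0.78 ± 0.19 (adjusted p = 5.58e-04), but -0.16 ± 0.23 against DMSO library 1 alone (adjusted p = 0.6005), -0.58 without DMSO library 4, and 0.23 under total-count scaling. The difference of the HOM from the WT response, -1.38 ± 0.27 (adjusted p = 1.42e-04), was -0.76 against HOM DMSO library 1 alone (adjusted p = 0.0475). In this comparison 26.2% of all genes had a higher and 23.9% a lower response, and 3 of the 8 members were called, SPP1 higher and RUNX2 and ALPL lower. Total-count scaling called 3 higher and 1 lower, beside 49% and 5.43% of all genes. With HOM DMSO library 1 alone the shares were 8.97% and 9.48%, and RUNX2, ALPL and BMP2 were called, all lower.

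SPP1, osteopontin, a phosphorylated matrix protein that binds integrins (chr4:87975650-87983426, plus strand), fell with etoposide in HET cells and was highest in HOM cells with etoposide. WT libraries held 282, 459, 223 and 279 normalized counts in DMSO and 309.9, 335, 268 and 285 in etoposide. KO libraries held 309.5, 230.2, 267 and 232 in DMSO and 267, 265, 287 and 249.7 in etoposide. Both pairs of groups overlapped and neither change was called. HET libraries went from 378, 527, 354 and 339.8 to 199, 166, 153 and 159.9, without overlap, a log2 change of -1.22 ± 0.24 (adjusted p = 1.22e-04). In HOM DMSO the SD of SPP1 was 140.5, the widest of the 8 groups (15.5 to 106.8 in the others), while the fit pooled their spread. HOM libraries held 457, 199, 249 and 132 in DMSO and 643, 681, 606 and 439 in etoposide. The change was 1.32 ± 0.24 (adjusted p = 1.56e-05), whereas against DMSO library 1 alone, the highest of its group, it was 0.35 ± 0.26 (adjusted p = 0.2787).

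The SPP1 response in HET cells differed from that in WT by -1.21 ± 0.34 (adjusted p = 0.0276). SPP1 and BMP2 were the 2 members called in this comparison, where 2.97% of all genes had a higher and 1.78% a lower response. The SPP1 call was lost in 8 of the 16 fits that left out 1 library, with log2 differences from -1.42 to -1.07 over all 16. Those 8 libraries were WT DMSO 1, 3 and 4, WT etoposide 1 and 2, HET DMSO 2, and HET etoposide 3 and 4. Under total-count scaling it was -1.25 with an adjusted p of 0.1464. The HOM response differed from WT by 1.32 ± 0.34 (adjusted p = 0.0019), and by 0.36 (adjusted p = 0.4616) against HOM DMSO library 1 alone.

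SPARC (chr5:151661096-151687165, minus strand) was lowest in HOM cells, and its changes with etoposide stayed under 1.5-fold. Group means were 40826 ± 1515 normalized counts in WT DMSO and 35763 ± 1809 in WT etoposide (SD, n = 4). KO means were 29854 ± 1957 and 26954 ± 630, HET means 33301 ± 2636 and 27948 ± 655, and HOM means 22180 ± 1687 and 19079 ± 572. The highest of the 8 HOM libraries, at 23561, lay under the lowest library of the other genotypes, at 26267. Log2 changes with etoposide were -0.19 ± 0.07 in WT (adjusted p = 0.0327), -0.25 ± 0.07 in HET (adjusted p = 0.0067) and -0.21 ± 0.07 in HOM (adjusted p = 0.0099), none of them past the fold limit. Against HOM DMSO library 1 alone the HOM value was -0.30 ± 0.10 (adjusted p = 0.0179). Under total-count scaling the WT value was 0.04 and the HOM value 0.80.

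BGLAP, osteocalcin, a small calcium-binding protein of late osteoblasts (chr1:156241962-156243321, plus strand), had 275 counts in all. Group means lay between 5.01 in WT etoposide and 16.4 ± 10.1 (SD, n = 4) in KO etoposide. KO libraries held 2.92, 10.7, 0.950 and 7.80 normalized counts in DMSO and 20.3, 26.0, 2.44 and 16.8 in etoposide, so that 3 of the 4 etoposide libraries lay above all KO DMSO libraries and the other did not. This log2 change of 1.37 ± 0.61 was not called (adjusted p = 0.0644). It was called at 2.04 (adjusted p = 0.0056) without KO etoposide library 3 and at 1.75 (adjusted p = 0.0291) without KO DMSO library 2. A pseudocount of 5 (adjusted p = 0.0438) and total-count scaling (adjusted p = 0.0299) also called it, and the other settings did not. HOM libraries held 16.8, 23.9, 7.01 and 17.0 in DMSO and 7.91, 6.49, 6.14 and 2.55 in etoposide. This change was not called (adjusted p = 0.0508), and was -1.47 ± 0.96 against DMSO library 1 alone. It was called with a pseudocount of 5 (adjusted p = 0.0275), limma voom (adjusted p = 0.0453) and a replicate block (adjusted p = 0.0391). A fit on the 2 groups alone called it too (adjusted p = 0.0264), whereas total-count scaling, the deposited scale and no filter did not. The readthrough gene PMF1-BGLAP overlaps BGLAP on the same strand and held 20.5 to 231.5 normalized counts, so the split of reads between the 2 genes is uncertain. In HOM DMSO it held 98.5 in library 1 and 134, 189 and 231.5 in libraries 2, 3 and 4, which stood apart, beside 86.6 to 95.8 in KO DMSO.

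IBSP (chr4:87799581-87812435, plus strand), a matrix protein of mineralizing bone, had 0 counts in all 16 DMSO libraries and 45 counts in 12 of the 16 etoposide libraries. A count of 0 allows a level of up to 2.3 to 6.37 normalized counts per library (3 counts, counting error only). WT etoposide libraries held 0, 2, 4 and 6 counts and KO libraries 0, 0, 2 and 3. HET etoposide libraries held 3, 0, 7 and 9 counts and HOM libraries 2, 3, 2 and 2. An exact two-sided permutation test on normalized counts gave p = 0.1429 in WT, 0.4286 in KO, 0.1429 in HET and 0.02857 in HOM, the last being the smallest that 4 against 4 libraries allow. Adjusted over these 4 tests the values were 0.1905, 0.4286, 0.1905 and 0.1143. The etoposide means of WT (2.818 normalized counts), KO (1.036) and HOM (1.813) lay under the mean level that 3 counts per library give in their DMSO groups (2.869, 3.081 and 4.813), so no fold is given for them. The HET mean of 3.828 was at least 1.46-fold higher than that level in HET DMSO (2.627), in a comparison that did not pass the test.

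Between genotypes in DMSO, 0 of the 8 tested members were called in KO against WT by limma, beside 2.75% of all genes higher and 5.59% lower. At an unadjusted p under 0.05 there were 6 members, beside 22.9% of all genes at that limit. limma voom on the recovered counts called 0 members, beside 3.01% of all genes higher and 5.54% lower. MSX2 (-0.35, adjusted p = 0.0117) and SPARC (-0.45, adjusted p = 4.67e-05) passed on p and not on fold. In HET against WT, RUNX2 and DLX5 were higher and BMP2 lower, 3 of 8 members, beside 16.1% of all genes higher and 16.4% lower (24.8% and 9.59% under total-count scaling, with the same number of members each way). RUNX2 was 1.98-fold higher (log2 0.99 ± 0.12, adjusted p = 1.72e-07) and BMP2 was at 0.534 of the WT level (-0.91 ± 0.15, adjusted p = 1.32e-05), both without overlap between the groups. DLX5 was 1.39 ± 0.46 higher (adjusted p = 0.0143) and was not called without WT DMSO library 1 (1.002, adjusted p = 0.0839) or library 4 (1.22, adjusted p = 0.0517). It passed the filter on low values only through HET and HOM DMSO libraries.

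SPARC was lower in HOM than in WT DMSO cells, by -0.88 ± 0.07 (log2, adjusted p = 6.40e-10), and by -0.79 ± 0.10 with HOM DMSO library 1 alone (adjusted p = 9.97e-06). DLX5 was also called here, higher by 1.12 ± 0.46 (adjusted p = 0.0331), although the groups overlapped and it passed the filter only through HET and HOM DMSO libraries. The DLX5 call was absent with HOM DMSO library 1 alone (1.39, adjusted p = 0.2980), without WT DMSO library 1 or 4, and without HOM DMSO library 1, 3 or 4. In this comparison 20% of all genes were higher and 27.6% lower, against 1.03% and 3.51% with library 1 alone. Total-count scaling called 0 members higher and 4 lower, beside 3.3% and 45.8% of all genes. A fit on these 2 groups alone, with their own spread, called 665 of the 16824 tested genes higher and 494 lower. In HOM against KO in DMSO, BGLAP was the 1 member called (1.58 ± 0.61, adjusted p = 0.0228), beside 22.6% of all genes higher and 28.6% lower. Total-count scaling called 0 members higher and 2 lower, beside 5.74% and 44.8%. BGLAP was not called without KO DMSO library 1 or 3 or HOM DMSO library 2. With HOM DMSO library 1 alone BGLAP was not called (adjusted p = 0.2846), while RUNX2 (0.80, adjusted p = 8.16e-04) and SPP1 (0.82, adjusted p = 0.0411) were, beside 4.37% and 4.29% of all genes.

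In etoposide, HOM cells differed from WT in 4 of the 8 tested members, beside 14% of all genes higher and 14.7% lower. HOM DMSO libraries enter this contrast only through the pooled spread, and a fit on these 2 groups alone called the same 4 members. ALPL was at 0.369 of the WT level (log2 -1.44 ± 0.19, adjusted p = 3.40e-07) and SPARC at 0.534 (-0.91 ± 0.07, adjusted p = 3.46e-11). RUNX2 was lower by -0.61 ± 0.12 (adjusted p = 1.49e-04), under the fold limit at -0.56 without WT etoposide library 4, and SPP1 was higher by 0.97 ± 0.24 (adjusted p = 0.0016). All 4 pairs of groups were free of overlap. Under total-count scaling RUNX2 was at -0.39 and not called (adjusted p = 0.1145), where the median of all genes moved up by 0.22 and 19.6% of all genes were higher and 9.34% lower.

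The KO etoposide libraries were lower than WT in ALPL (-0.65 ± 0.19, adjusted p = 0.0065) and BMP2 (-0.88 ± 0.15, adjusted p = 1.53e-05), 2 of 8 members, beside 11.7% of all genes higher and 15% lower. The ALPL value was -0.58 under total-count scaling, under the fold limit. In HET against WT, RUNX2 was higher (0.77 ± 0.12, adjusted p = 1.32e-05) and SPP1 lower (-0.82 ± 0.24, adjusted p = 0.0083), beside 10.1% of all genes higher and 13.2% lower. SPP1 was at -0.58 and not called under total-count scaling (adjusted p = 0.1772), which left 1 member higher and 0 lower beside 16.3% and 7.44% of all genes. In HOM against KO, SPP1 (1.13 ± 0.24, adjusted p = 8.44e-04) and MSX2 (0.68 ± 0.09, adjusted p = 3.62e-06) were higher and ALPL lower (-0.79 ± 0.19, adjusted p = 0.0030), beside 7.47% of all genes higher and 4.67% lower (10.6% and 2.74% under total-count scaling).

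On the deposited variance-stabilized scale, which compresses differences between low levels, 9 calls lay under the fold limit. They were ALPL in the WT response (0.48), the HOM response (-0.56), KO against WT in etoposide (-0.52) and HOM against KO in etoposide (-0.56). RUNX2 in HOM against WT in etoposide (-0.56) and BGLAP in HOM against KO in DMSO (0.52) were also among them, as was DLX5 in the HET response (-0.43), HET against WT in DMSO (0.40) and HOM against WT in DMSO (0.33). ALPL in the WT response was also lost with a pseudocount of 5 (0.58). In fits on the compared groups alone, DLX5 in HOM against WT DMSO (adjusted p = 0.1650) and BGLAP in HOM against KO DMSO (adjusted p = 0.0697) were not called, and without the filter DLX5 was not (adjusted p = 0.0632).

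**Figure D4:**
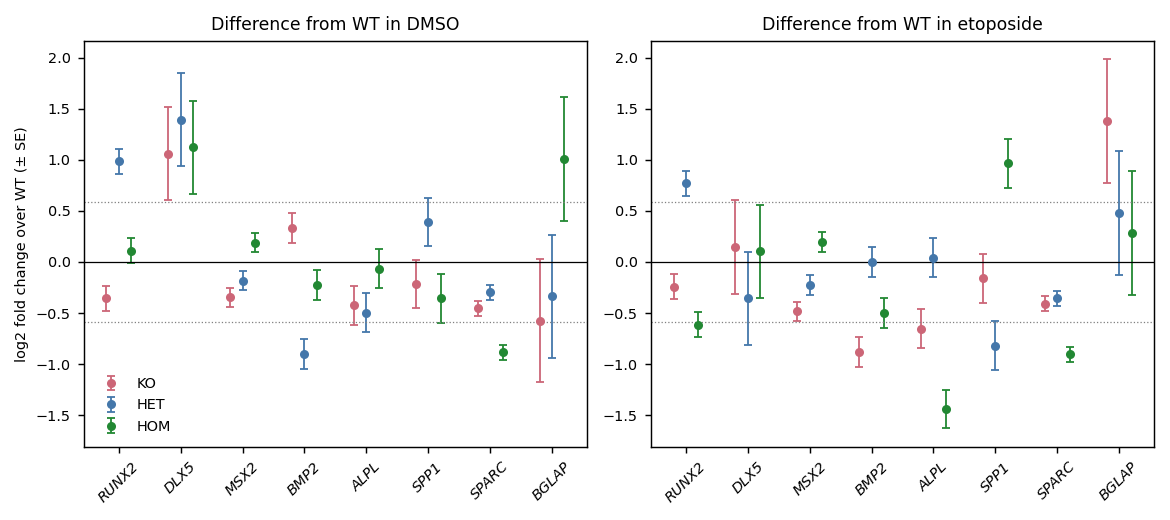
Log2 difference of KO, HET and HOM cells from WT with its standard error (vertical axis) for the 8 tested members, in DMSO on the left and in etoposide on the right, with dotted lines at 1.5-fold. RUNX2 in HET cells lies above WT in both panels (0.99 and 0.77), SPARC in HOM cells below it in both (-0.88 and -0.91), and ALPL in HOM cells at -1.44 in etoposide.

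The authors' deposited tables cover 6 of these comparisons, and the counts here use an adjusted p under 0.05 with no fold limit. For HOM against WT in etoposide the authors' deposited table listed 2 members higher and 4 lower, beside 17.8% and 19.7% of all genes with an adjusted p in that table. For KO against WT in etoposide the authors' deposited table listed 1 higher and 4 lower, beside 15.7% and 18.9%. In DMSO the authors' deposited tables listed 0 higher and 1 lower for HOM against WT, beside 26% and 25.5%, and 0 higher and 3 lower for KO against WT, beside 5.11% and 8.68%. For HOM against KO the authors' deposited tables listed 3 higher and 2 lower in DMSO, beside 26.2% and 25.1%, and 3 higher and 3 lower in etoposide, beside 11.8% and 10.8%. The tables that use HOM DMSO hold the libraries that stood apart.

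Other genes of the lineage were read from 4 lists that hold none of the 9 members. Of 15 tested osteoblast transcription factors, 3 rose and 4 fell with etoposide in WT cells, beside 20.1% and 14.9% of all genes. DLX3, a homeobox factor, rose from a mean of 24.4 to 114 normalized counts (log2 2.26 ± 0.28, adjusted p = 9.36e-08), and HEY1, a Notch target, rose by 1.51 (adjusted p = 2.01e-05). ZNF521, a zinc finger protein that binds RUNX2 (-1.69, adjusted p = 6.83e-08) and RUNX1, a relative of RUNX2 (-0.82, adjusted p = 3.83e-07), fell. In KO cells 3 rose and 5 fell, beside 18.1% and 14.5% of all genes, and in HET cells 5 rose and 2 fell, beside 17.5% and 12.7%. HEY1 was at 2.01 in both, DLX3 at 1.17 and 1.22, ZNF521 at -1.41 and -1.61, and RUNX1 at -1.48 in KO and -0.59 in HET, all called. The RUNX1 value in HET lay close to the fold limit, and was -0.39 and not called under total-count scaling. The median log2 change of the list was 0.22, 0.03 and 0.07 in WT, KO and HET, against 0.05, 0.05 and 0.01 over all tested genes. Under total-count scaling the counts were 6 and 2, 3 and 2, and 7 and 1. The shares of all genes were then 26.1% and 8.83%, 28.6% and 7.07%, and 22.3% and 7.52%. In HET against WT DMSO cells 2 of the 15 were higher and 5 lower, beside 16.1% and 16.4% of all genes. The median was -0.44 against -0.005 over all genes. Under total-count scaling 2 were higher and 1 lower, beside 24.8% and 9.59% of all genes. CBFB, the binding partner of RUNX proteins, was among the higher ones (0.97 ± 0.18, adjusted p = 9.52e-05), and TWIST2, which restrains RUNX2, among the lower ones (-1.09 ± 0.18, adjusted p = 1.27e-05).

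Of 28 tested genes of the BMP pathway, 4 rose and 6 fell with etoposide in WT, 3 rose and 11 fell in KO, and 3 rose and 8 fell in HET. Of all tested genes, 20.1% rose and 14.9% fell in WT, 18.1% and 14.5% in KO, and 17.5% and 12.7% in HET. Medians were -0.005, -0.34 and -0.15 against 0.05, 0.05 and 0.01 over all genes. Under total-count scaling the counts were 5 and 4, 5 and 5, and 4 and 6. The shares of all genes were then 26.1% and 8.83%, 28.6% and 7.07%, and 22.3% and 7.52%. SMAD6, an inhibitor of BMP signalling, fell in all 3, by -1.90 in WT (adjusted p = 4.20e-14), -1.49 in KO (adjusted p = 1.21e-11) and -2.10 in HET (adjusted p = 4.86e-15). SOSTDC1, a secreted BMP antagonist, went from a mean of 234 to 11.7 normalized counts in WT (-4.17 ± 0.31, adjusted p = 5.88e-12), and changed by -2.64 in KO. In HET, where its DMSO mean was 18.8, it changed by -1.85. FST, follistatin, another antagonist, rose by 1.26 in WT (adjusted p = 2.73e-12) and by 1.35 in KO (adjusted p = 1.04e-12). In HET its change was 0.30 and not called, and the HET response of FST differed from that in WT by -0.97 ± 0.13 (adjusted p = 9.94e-06). In DMSO, HET cells had 10 of the 28 higher and 6 lower than WT, beside 16.1% and 16.4% of all genes, with a median of 0.25 against -0.005. Under total-count scaling they were 10 and 3, beside 24.8% and 9.59%. ID4 (2.16, adjusted p = 6.43e-12) and ID2 (1.67, adjusted p = 8.24e-12), targets of BMP signalling, were higher, while NOG, noggin, an antagonist, had a mean of 214 against 1310 normalized counts (-2.61 ± 0.10, adjusted p = 1.94e-18). The ligand BMP7 was lower (-1.17, adjusted p = 4.97e-08), as was the member BMP2 (-0.91), and BMP6 was not called (adjusted p = 0.2213). Whether BMP signalling differed was not tested.

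Of 20 tested genes of bone matrix and mineralization, 2 rose and 2 fell with etoposide in WT, 5 rose and 7 fell in KO, and 3 rose and 3 fell in HET. The shares of all tested genes were 20.1% and 14.9%, 18.1% and 14.5%, and 17.5% and 12.7%. Medians were 0.02, -0.06 and 0.06 against 0.05, 0.05 and 0.01 over all genes. Under total-count scaling the KO counts were 6 and 3, beside 28.6% and 7.07% of all genes, and the HET counts 4 and 2, beside 22.3% and 7.52%. SMPD3, a sphingomyelinase needed for mineralization, rose in all 3 genotypes, by 1.87 in WT (adjusted p = 1.23e-06), 1.48 in KO (adjusted p = 5.02e-05) and 1.77 in HET (adjusted p = 3.38e-06). MGP, an inhibitor of mineralization, fell by -1.97 in WT (adjusted p = 3.12e-06), -1.98 in KO (adjusted p = 3.83e-06) and -2.50 in HET (adjusted p = 6.47e-08). In DMSO, HET cells had 5 of the 20 higher and 4 lower than WT, beside 16.1% and 16.4% of all genes, with a median of -0.40 against -0.005. Under total-count scaling they were 5 and 2, beside 24.8% and 9.59%. LUM, lumican, had a mean of 2971 against 167 normalized counts (4.17 ± 0.28, adjusted p = 1.08e-12), and ENPP1, which makes the mineralization inhibitor pyrophosphate, a mean of 2166 against 192 (3.50 ± 0.17, adjusted p = 5.67e-16). In etoposide, HOM cells had 3 higher and 6 lower than WT, beside 14% and 14.7% of all genes. Under total-count scaling they were 5 and 5, beside 19.6% and 9.34%. LOX (2.17, adjusted p = 3.71e-10) and LUM (1.88, adjusted p = 3.10e-06) were higher. FN1 was lower (-1.83, adjusted p = 2.16e-11). COL1A1, the main chain of collagen I, was also lower, at a mean of 21971 against 59181 (-1.44 ± 0.20, adjusted p = 8.72e-07).

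Of 18 tested genes for signals between osteoblasts and osteoclasts and for hormone receptors, 7 rose and 2 fell with etoposide in WT, 9 rose and 3 fell in KO, and 7 rose and 1 fell in HET. Beside these stand 20.1% and 14.9%, 18.1% and 14.5%, and 17.5% and 12.7% of all tested genes. Medians were 0.53, 0.34 and 0.29 against 0.05, 0.05 and 0.01 over all genes. The WT counts were 8 and 1 under total-count scaling, beside 26.1% and 8.83% of all genes. FGFR3, a receptor for fibroblast growth factors, rose by 2.09 in WT (adjusted p = 4.48e-11), 1.62 in KO (adjusted p = 1.00e-08) and 1.19 in HET (adjusted p = 1.70e-06). CSF1, a growth factor for osteoclast precursors, rose by 1.66 in WT (adjusted p = 8.74e-11), 0.94 in KO and 1.09 in HET. PTHLH, parathyroid hormone-related protein, rose by 2.10 in KO (adjusted p = 2.82e-13) and 1.84 in HET (adjusted p = 2.58e-12), and also rose in WT (adjusted p = 1.69e-10). CDH11, the cadherin of osteoblasts, fell by -0.93 in WT (adjusted p = 9.82e-05), -2.37 in KO (adjusted p = 1.12e-11) and -1.53 in HET (adjusted p = 4.53e-08).

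Across the 32 libraries, which share the same 8 groups, the 2 other genes whose log2 levels followed MSX2 most closely were FOSB and INSYN2, each with a Pearson r of 0.977. For BMP2 they were PLCXD2 (0.960) and ATF3, a stress-induced transcription factor (0.949). RUNX2 had VGLL4 (0.924) and ZNF516 (0.916), ALPL had USP36 (0.914) and MYH13 (0.895), and SPARC had IGFBP7 (0.909) and TSC22D1 (0.895). SPP1 had PURG (0.801). The values were lower for the sparse genes, with 0.639 for DLX5 and NCALD and 0.620 for BGLAP and CDRT4. These are the highest values among 16824 tested genes and serve as a description.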

How the data were processed

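Poly-A libraries of U2OS cells, 8 groups of 4, were quantified by the submitters, whose processing notes name kallisto, DESeq2 and the builds GRCh38 and hg38, without versions. The authors deposited an expression matrix on a log2-like, variance-stabilized scale with a floor of 4.43, a mean normalized signal per gene, and 6 tables of their own comparisons with log2 fold changes and adjusted p-values (p-value columns, per the file headers). No source used here says whether counting used strand.

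The stabilizing transform was inverted to normalized counts, whose means matched the deposited mean signal to a relative difference of 4.5e-14. Whole counts were recovered from the step size, with 100% of values whole within 0.01. limma 3.58.1 in R 4.3.3 was fitted with a mean-variance trend to log2(normalized count + 1), over all 32 libraries with 1 mean per group, for the 16824 genes that reached 10 normalized counts in 4 or more libraries. This gave 15 contrasts. P-values were adjusted by Benjamini-Hochberg over all tested genes. A call needed an adjusted p under 0.05 and a fold of at least 1.5, and fold changes are on the log2(value + 1) scale, which understates the change of low genes. Every adjusted p in the results is limma's, except for IBSP, which was tested by exact permutation (scipy 1.17.1). The fit was tested on simulated data with the same dispersion in every group and changes only among well-detected genes. That test does not cover the sparse members or the wider spread of HOM DMSO.

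Any of the 9 members could be named in any comparison, and comparisons between genotypes name mainly those called. From each of 4 lists of related genes, up to 2 higher and 2 lower genes per contrast of 2 groups could be named. These had the largest change and a mean of at least 50 in 1 group. A gene picked in 1 contrast could also be given in others, where it need not meet these limits. For each member the 2 genes with the highest Pearson r could be named. Some values are not reported here. The members and lists were chosen with earlier results of these data known. Levels per kb use the median length of coding transcripts in GENCODE 29. Plates of 1 line are the replicates, and the lowest chi-square per degree of freedom between replicates was 1.85, so no pair agreed within sampling noise. In no contrast were the deviations of all 4 same-numbered pairs correlated above 0.1 (correlations of -0.179 to 0.364), so replicate numbers were not used as pairs. Alternatives were a pseudocount of 5, no filter, the deposited scale, total-count scaling, limma voom, the compared groups only, a replicate block, each library left out, and HOM DMSO libraries 2, 3 and 4 left out.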

Additional observations from a re-analysis of the deposited data

Results flagged for a closer look

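In 3 of 68 groups of 4 libraries checked over the members, 1 library lay far from the other 3, and chance gives about 1 in 20. They were MSX2 in KO DMSO, whose lowest library was at 100.7 normalized counts beside 110.0 to 111, BMP2 in HET etoposide, whose highest was at 569.7 beside 486 to 499, and DLX5 in KO DMSO, whose highest was at 9.638 beside 7.60 to 7.80.

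The etoposide response of 4 members differed from that of WT by limma's test of the difference (log2, n = 4 libraries per group). Of all tested genes, 7.11% had a higher and 8.13% a lower response in KO. These shares were 2.97% and 1.78% in HET, and 26.2% and 23.9% in HOM. BMP2 differed by -1.22 in KO (adjusted p = 7.27e-05) and by 0.90 in HET (adjusted p = 0.0063). SPP1 differed by -1.21 in HET (adjusted p = 0.0276) and by 1.32 in HOM (adjusted p = 0.0019). RUNX2 differed by -0.72 (adjusted p = 0.0010) and ALPL by -1.38 (adjusted p = 1.42e-04) in HOM. Under total-count scaling BMP2 (adjusted p = 0.1426) and SPP1 (adjusted p = 0.1464) in HET were not called. RUNX2 in HOM was then at 0.058 and not called, while the other calls held. The HOM values rest on a DMSO group in which libraries 2, 3 and 4 stood apart. With library 1 alone the SPP1 value was 0.36 (adjusted p = 0.4616), while RUNX2 (-1.05) and ALPL (-0.76) were still called.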

How the results depend on the processing

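Of 72 changes followed, those with an adjusted p under 0.05 or called under any setting, limma voom left 71 on their side of the threshold, a pseudocount of 5 left 68, no filter 71, the compared groups only 69 and the deposited variance-stabilized values 63, none reversed. The replicate block altered 1 call: BGLAP in the HOM response stayed at -1.31 with an adjusted p of 0.0391, against 0.0508 without the block. Total-count scaling gave 9 reversals: SPARC in the WT response (0.036), ALPL (0.23), DLX5 (0.15) and SPARC (0.80) in the HOM response, MSX2 (-0.019) and RUNX2 (-0.091) in HOM against KO DMSO, and BMP2 (0.50), RUNX2 (0.058) and SPARC (0.76) in the HOM response difference. Without HOM DMSO libraries 2, 3 and 4, BMP2 (0.29) and SPP1 (0.61) reversed in HOM against WT DMSO, and SPP1 (0.82) in HOM against KO DMSO. The cause was not tested.

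Members called by total-count scaling were 4 in the KO response (2 in the results above), beside 28.6% of all genes higher and 7.07% lower. They were 4 in HOM against WT DMSO (2), beside 3.3% and 45.8%, and 2 in HOM against KO DMSO (1), beside 5.74% and 44.8%. In etoposide they were 1 in KO against WT (2), beside 12.5% and 12.5%, and 1 in HET against WT (2), beside 16.3% and 7.44%. The HET response difference had 0 (2), beside 2.95% and 1.83%. The deposited scale called 1 in HOM against WT DMSO, beside 2794 of the 16824 tested genes higher and 3314 lower. It called 0 in HOM against KO DMSO, beside 3121 and 3657, and 1 in KO against WT etoposide, beside 1566 and 1988. The compared groups only called 1 in HOM against WT DMSO, beside 665 genes higher and 494 lower, and 0 in HOM against KO DMSO, beside 2661 and 2179. No filter called 1 in HOM against WT DMSO, beside 3247 and 4392 of the tested genes. Without HOM DMSO libraries 2, 3 and 4 the counts were 3 in the HOM response (5), 1 in HOM against WT DMSO and 2 in HOM against KO DMSO.

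With 1 library left out, counts of members called ran from 2 to 5 in HET against WT DMSO, 1 to 2 in HOM against WT DMSO, 0 to 2 in HOM against KO DMSO, 1 to 2 in the KO response difference and 1 to 2 in the HET one. The 5 in HET against WT DMSO came without WT DMSO library 2, and the 2 in the KO response difference without KO etoposide library 3. The shares of all genes in these fits are not reported here, so the ranges of counts are a description. The sign was not fixed for ALPL in HOM against WT DMSO (-0.26 to 0.14), SPP1 in HOM against KO DMSO (-0.46 to 0.13), and, in the HOM response difference, MSX2 (-0.053 to 0.076) and SPARC (-0.078 to 0.0080). Depth limits DLX5, BGLAP and IBSP most, with 210, 275 and 45 counts in all.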
